A study of Mus musculus with 56 samples.

Results

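The transcriptional response of β-cateninΔC/- breast cancer cells (ΔC/- cells) to TGFβ was measured by RNA sequencing. These mouse tumor cells carry 1 ΔC allele of β-catenin over a deleted allele, and the comparison set 2 samples given TGFβ at 2 ng/ml over 4 days against 2 untreated samples of the same experiment. They are 4 of the 56 samples of the series, which holds 28 conditions with 2 replicates each, and were taken by genotype and treatment alone. All lines came from mammary tumors of FVB/N females in which the MMTV promoter drives the polyoma middle T oncogene (PyMT) in mammary epithelium. Medium with TGFβ was renewed every second day, and the untreated cells received the same medium without it. For comparison, the same treatment was followed in ΔC/fl cells, which keep a floxed and thus intact second allele, in fl/fl cells, which have no mutant allele, and in dm/- cells, which carry another mutant allele over a deleted one. The TGFβ experiment held 7 genotypes, and its D164A/fl, D164A/- and dm/fl cells were not compared here. By its name ΔC lacks the C-terminus of β-catenin. Its exact lesion and that of dm are not given in the sources used here. In the study, an adenovirus that carries Cre and GFP deleted the floxed alleles in culture, and GFP-positive cells were then sorted. A control virus with GFP alone is also described, but the study's text does not tie it to these samples. Loss of the allele therefore cannot be told apart from exposure to Cre virus. The study speaks of more than one fl/fl line, but the labels tie no sample to a line or tumor, so genotype and cell line cannot be told apart. The replicates are described as biological duplicates, with nothing said of separate cultures. The p-values measure spread between replicates pooled over all 28 conditions of the series, not that of these 4 samples alone.

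TGFβ binds a pair of serine/threonine kinase receptors, which phosphorylate Smad2 and Smad3. These join Smad4, enter the nucleus and act on target genes with partners such as AP-1, while inhibitors such as Smad7 and SnoN (encoded by Skil) shut the pathway off. In epithelial cells TGFβ drives epithelial-mesenchymal transition (EMT), in which factors of the Snail, Zeb and Twist families repress junction genes such as Cdh1 (E-cadherin) and matrix, protease and cytoskeletal genes are switched on. β-catenin stands on both sides of this process, as the protein that ties E-cadherin to the actin skeleton and as the coactivator of TCF/LEF factors in Wnt signaling, where its C-terminus recruits the transcription machinery.

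The 56 libraries held 22.4 M to 33.7 M assigned reads, and the 4 ΔC/- libraries 24.5 M to 31.3 M. Levels are given as CPM, counts per M reads on the authors' scale, on which 3 reads in a ΔC/- library were worth 0.0944 to 0.118 CPM. The 2 treated libraries lay farther apart than the untreated ones, with a median absolute log2 difference between replicates of 0.337 against 0.133. That difference followed the GC content of genes in the treated pair (Spearman's rho 0.709 across genes, which are not independent replicates). The same median reached 1.06 in untreated dm/fl cells of the Wnt3a experiment, whose spread entered the same fit. Treated replicate 2 had the lowest scaling factor of all 56 libraries, 0.809. Ctnnb1, which encodes β-catenin, stood at 2127 and 2161 CPM in untreated and 3188 and 2552 CPM in treated ΔC/- cells (log2 fold change 0.41, adjusted p = 0.38), and these counts per gene cannot tell a truncated from an intact transcript. Of 9 mammary epithelial markers, 6 were above 1 CPM, and their summed level was 3828 and 4266 CPM untreated and 7857 and 13540 CPM treated, with none of the 9 called. The 8 fibroblast markers summed to 9.50 to 9.98 CPM untreated and 25.8 to 26.3 CPM treated, with Thy1 and Col3a1 at 0 in all 4 samples. The 6 endothelial markers summed to 0.711 CPM or less, with Tek and Cldn5 at 0, and the 4 adipocyte markers to 0.0395 CPM or less. The 8 leukocyte markers summed to 60.8 to 81.1 CPM untreated and 17.1 to 27.2 CPM treated, almost wholly as Cd68 and Csf1r, while the pan-leukocyte gene Ptprc had at most 1 read and Cd3e and Adgre1 none.

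TGFβ changed the expression of 901 of 13754 genes tested in ΔC/- cells (6.55%), of which 394 rose (2.86%) and 507 fell (3.69%). A gene was called when limma's moderated test on log2(CPM + 1) gave a Benjamini-Hochberg adjusted p of at most 0.05 over all genes tested together with a change of 1 or more, up or down, on the log2 scale. All fold changes below are on this scale, which understates the change of low genes. In all 901 genes the 2 treated samples lay on one side of both untreated samples. Such a separation alone was frequent, with 27.4% of all tested genes higher and 29.9% lower in that way. The rises reached further than the falls. At least 2 on the log2 scale was passed by 150 genes that rose and by 122 that fell, at least 3 by 48 and 23. Among the genes that rose, 147 reached a treated mean of 100 CPM, whereas 76 of those that fell started from an untreated mean of 100 CPM. The count was 486 without treated replicate 2, 497 and 550 without untreated replicates 1 and 2, and 669 without treated replicate 1. Of the 113 genes called in ΔC/- cells that are named in the text, 59 stayed called whichever of the 4 libraries was left out, and the others lost their call, none its direction, without at least 1 of them.

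The largest rise was that of Mmp9, a gelatinase that degrades basement membrane collagen. Mmp9 measured 0.582 and 0.944 CPM untreated and 1061 and 2293 CPM treated, an increase of 9.80 (SE 0.86) on the log2 scale (adjusted p = 6.7e-10). It was all but silent before treatment, with 15 and 30 reads, and both treated samples lay far above. Tnc, the matricellular glycoprotein tenascin C, followed with 6.48 and 9.44 CPM untreated and 2439 and 2572 CPM treated (log2 fold change 8.15 (SE 0.63), adjusted p = 4.6e-11). Has2, the main hyaluronan synthase, measured 20.7 and 15.5 CPM untreated and 1168 and 624 CPM treated (log2 fold change 5.50 (SE 0.80), adjusted p = 1.1e-05). In Tnc the treated samples were close together, while in Mmp9 and Has2 they were about a factor of 2 apart and still clear of the untreated samples. The next increases included Csf2, the cytokine GM-CSF, with 0.543 and 0.378 CPM untreated and 73 and 96.9 CPM treated. Clu, the secreted chaperone clusterin, measured 163.86 and 153 CPM untreated and 2221 and 4177 CPM treated. Sfn, the epithelial 14-3-3 sigma, measured 6.13 and 6.45 CPM untreated and 112 and 272 CPM treated. These values do not form one functional class, as a cytokine, a chaperone and a cell cycle protein stood among matrix genes. Angpt4, a ligand of the Tie2 receptor, measured 0.194 and 0.126 CPM untreated and 19.9 and 34.8 CPM treated, and Uchl1, a ubiquitin hydrolase, 1.94 and 1.89 CPM untreated and 43 and 65.4 CPM treated. Il13ra2, the decoy receptor for IL-13, measured 1.09 and 1.13 CPM untreated and 65.1 and 19.8 CPM treated, and its treated samples differed more than 3-fold. Hmga2-ps1 also rose (7.3 and 8.37 CPM untreated and 114 and 163.97 CPM treated), but it is a pseudogene that can share reads with Hmga2.

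**Figure D1:**
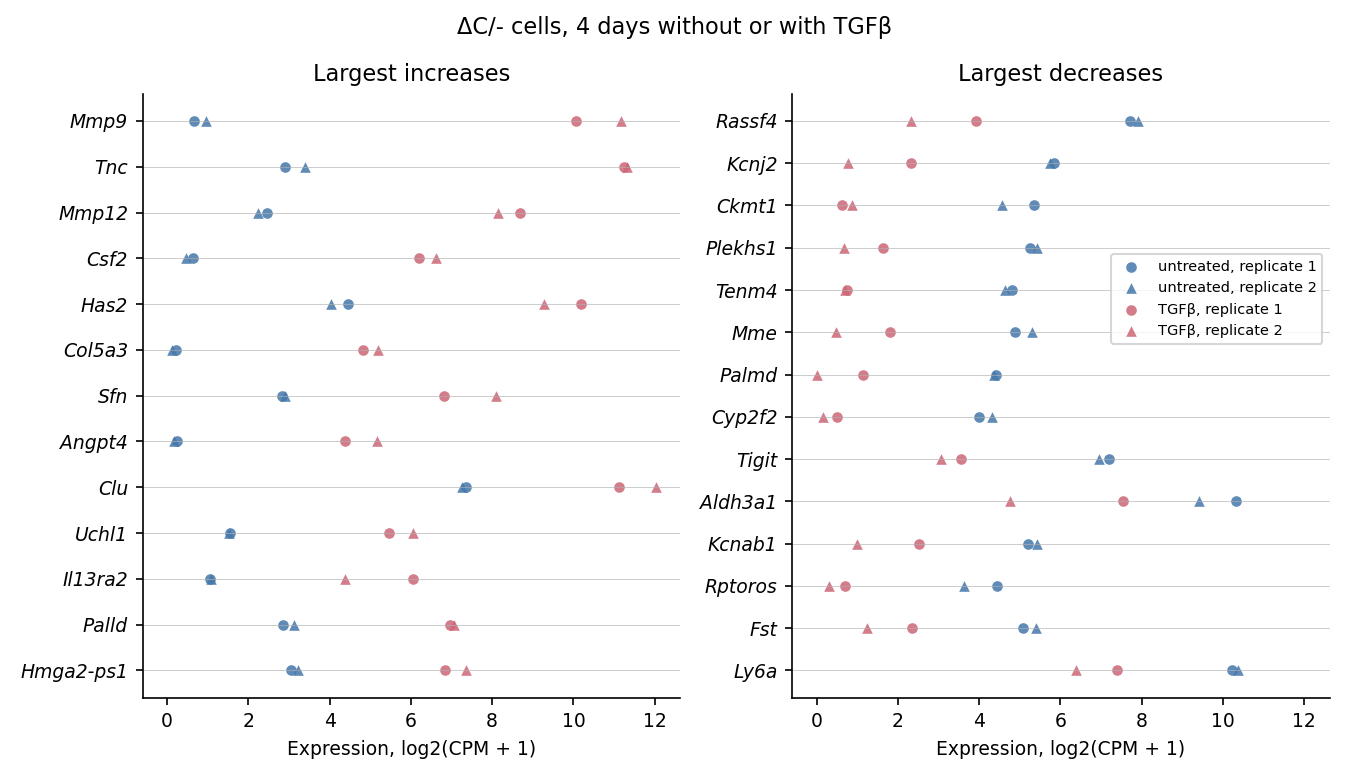
Expression of 13 of the 14 genes with the largest increase (left) and of the 14 with the largest decrease (right) in ΔC/- cells, as log2(CPM + 1) on the horizontal axis, 1 point per sample, blue for untreated and red for TGFβ-treated cells, circles for replicate 1 and triangles for replicate 2. In each gene shown both treated samples lie on one side of both untreated samples, and Mmp9 spans the widest range, from 0.582 to 2293 CPM.

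The largest decrease was that of Rassf4, a member of the Ras association domain family. Rassf4 measured 209 and 241 CPM untreated and 14.1 and 3.99 CPM treated (log2 fold change -4.70 (SE 0.86), adjusted p = 0.00027). Aldh3a1, an aldehyde dehydrogenase of epithelia, measured 1275 and 685 CPM untreated and 186 and 26 CPM treated (log2 fold change -3.72 (SE 0.91), adjusted p = 0.0062). Treated replicate 2 was the lower of the 2 in both genes, and the untreated Aldh3a1 values also differed by almost a factor of 2. Ly6a, which encodes the surface antigen Sca-1 and has close copies in the same cluster that can share its reads, measured 1203 and 1331 CPM untreated and 167 and 82.8 CPM treated. Tigit, known as an inhibitory receptor of T and NK cells, measured 146 and 122 CPM untreated and 10.7 and 7.31 CPM treated, in cells in which Ptprc had at most 1 read and Cd3e none. Mme, the peptidase CD10, measured 28.3 and 38.4 CPM untreated and 2.47 and 0.395 CPM treated. Kcnj2, an inwardly rectifying potassium channel, measured 56.4 and 52.4 CPM untreated and 3.97 and 0.711 CPM treated, and Kcnab1, a potassium channel subunit, 35.9 and 41.6 CPM untreated and 4.78 and 0.988 CPM treated. Each of these genes was lower in both treated samples than in either untreated sample. Plekhs1 (37 and 41.7 CPM untreated and 2.12 and 0.593 CPM treated), Palmd (20.3 and 19.7 CPM untreated and 1.2 and 0 CPM treated), Cyp2f2 (14.9 and 18.8 CPM untreated and 0.424 and 0.118 CPM treated) and Tenm4 (27.2 and 23.9 CPM untreated and 0.695 and 0.632 CPM treated) measured at most 2.12 CPM after treatment. Without treated replicate 2 the calls of Aldh3a1 (log2 fold change -2.32) and Mme (-3.29) were lost, and that of Aldh3a1 also without untreated replicate 1 and against the untreated cells of the Wnt3a experiment (-0.80). Ckmt1, a mitochondrial creatine kinase (39.7 and 22.5 CPM untreated and 0.54 and 0.83 CPM treated), and Rptoros (20.8 and 11.5 CPM untreated and 0.617 and 0.237 CPM treated), a transcript antisense to Rptor, fell below 1 CPM.

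Of 12 tested genes for TGFβ ligands and their activation 2 rose (16.7%, beside 2.86% of all genes) and 1 fell (8.33%, beside 3.69%), with a median log2 fold change of 0.26 beside 0 over all genes tested. These 2 shares over all genes are also those to set beside each list count below. Lrrc32 (GARP), which holds latent TGFβ at the cell surface, measured 31.2 and 25.7 CPM untreated and 269.8 and 334 CPM treated (log2 fold change 3.36 (SE 0.64), adjusted p = 0.0005). Ltbp2, a latent TGFβ binding protein of the matrix, measured 194 and 196 CPM untreated and 978 and 1819.7 CPM treated (log2 fold change 2.77 (SE 0.54), adjusted p = 0.0006). Both genes were therefore higher in each treated sample than in either untreated sample. Thbs1, thrombospondin 1, an activator of latent TGFβ, fell from 5382 and 5014 to 2565 and 1743 CPM (log2 fold change -1.30, adjusted p = 0.025). Tgfb1 itself measured 29 and 29.7 CPM untreated and 30.6 and 51.2 CPM treated (adjusted p = 0.79). Of 11 receptors, 2 rose (18.2%), Acvr1 with 56.1 and 56 CPM untreated and 118 and 158 CPM treated and Acvrl1 with 0.582 and 0.85 CPM untreated and 2.12 and 3.04 CPM treated. The type I receptor Tgfbr1 measured 98 and 111 CPM untreated and 332 and 196 CPM treated and the type II receptor Tgfbr2 222 and 217 CPM untreated and 267 and 271 CPM treated, and neither passed the test (adjusted p = 0.33 and 0.73). None of the 6 signal-transducing Smads was called, with Smad3 at 523 and 418 CPM untreated and 369 and 421 CPM treated. The call of Thbs1 was lost in 3 of the 4 fits that left out 1 library, each but that without treated replicate 1 (log2 fold changes -1.58 to -1.02), and that of Acvr1 without treated replicate 2 (1.07). Acvrl1 lost its call without treated replicate 2 or untreated replicate 1 (0.87 to 1.24), with pseudocount 0.1, with edgeR and with the GC trend removed. Against the untreated cells of the Wnt3a experiment Thbs1 was not called (-0.27).

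Among 12 feedback inhibitors of the pathway, 2 rose (16.7%), 1 fell (8.33%), and the median log2 fold change was 0.70. Smad7, the inhibitory Smad, measured 55 and 37.7 CPM untreated and 98.9 and 136 CPM treated (log2 fold change 1.33 (SE 0.32), adjusted p = 0.0053). Ldlrad4, which sequesters Smad2 and Smad3, measured 16.8 and 18 CPM untreated and 39.8 and 42.7 CPM treated (log2 fold change 1.20, adjusted p = 0.0089). The groups did not overlap in either gene. Nedd4l, a ubiquitin ligase that marks activated Smads, fell from 102 and 95.9 to 43.4 and 39.9 CPM (log2 fold change -1.23, adjusted p = 0.0033). Skil measured 214 and 205 CPM untreated and 501 and 323 CPM treated, and was not called (log2 fold change 0.94, adjusted p = 0.35). Among 12 immediate target genes 3 rose (25%), Ccn2 and Tgfbi among them, and Id1 fell (8.33%), with a list median of 0.93. Ccn2, the connective tissue growth factor, measured 420.5 and 345 CPM untreated and 1466 and 1422 CPM treated (log2 fold change 1.92 (SE 0.50), adjusted p = 0.01). Tgfbi, a secreted adhesion protein, measured 0.311 and 0.692 CPM untreated and 4.82 and 3.99 CPM treated (log2 fold change 1.86). Id1, an inhibitor of basic helix-loop-helix factors, fell from 27.6 and 32.1 to 5.56 and 10.4 CPM (log2 fold change -1.83, adjusted p = 0.01). Leaving out 1 library ended the call of Ccn2 in each of the 4 cases (1.78 to 2.06), those of Ldlrad4 (1.15 to 1.25) and Id1 (-2.23 to -1.43) in 3, that of Smad7 without treated or untreated replicate 2 (1.06 to 1.60), that of Tgfbi without treated or untreated replicate 1 (1.67 to 2.04) and that of Nedd4l without treated replicate 2 (-1.17). Of 14 activins, BMPs and antagonists 1 rose and 1 fell, the latter Fst, the activin antagonist follistatin (32.7 and 41.1 CPM untreated and 4.13 and 1.38 CPM treated).

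Of 23 tested genes of adherens and tight junctions none rose and 2 fell (8.70%, beside 3.69% of all genes), and the median log2 fold change was -0.02. Cdh1 measured 278 and 284 CPM untreated and 506 and 589 CPM treated. Both treated samples were higher than both untreated ones, but the increase of 0.95 (SE 0.34) did not pass the test (adjusted p = 0.075). Epcam, an epithelial adhesion molecule, measured 379 and 404 CPM untreated and 466 and 516 CPM treated (adjusted p = 0.69). The 2 junction genes that fell were Cldn1, a tight junction claudin (51.7 and 78.9 CPM untreated and 21.8 and 13 CPM treated), and Rab25, an epithelial vesicle GTPase (135 and 130.0 CPM untreated and 35.6 and 53.4 CPM treated). Among 10 desmosome genes only Ppl, which encodes periplakin, fell (10%; 243 and 233 CPM untreated and 71.9 and 62.3 CPM treated), and none of 13 keratins was called. The keratin count depended on the fit. With only the samples compared 4 rose, with a replicate block 3, with the GC trend removed 2 and with edgeR 1. Krt8, a simple epithelial keratin with many pseudogenes that can share reads, measured 506 and 624 CPM untreated and 1606 and 3374 CPM treated (adjusted p = 0.079), and Krt14 33.2 and 35.7 CPM untreated and 19.8 and 45.7 CPM treated. Of 16 epithelial transcription and splicing factors 1 rose and 3 fell (18.8%), with a median of -0.52. Klf5, a zinc finger factor of luminal epithelium, measured 124 and 76.2 CPM untreated and 23.1 and 16.5 CPM treated (log2 fold change -2.26 (SE 0.31), adjusted p = 3.9e-06). Gata3, the luminal lineage factor, measured 33.4 and 40.5 CPM untreated and 10.5 and 9.88 CPM treated (log2 fold change -1.76 (SE 0.37), adjusted p = 0.0016), and Klf4 70.3 and 36.7 CPM untreated and 20.5 and 9.09 CPM treated (log2 fold change -1.81 (SE 0.57), adjusted p = 0.039). The calls of Cldn1 (-2.22 to -1.51), Rab25 (-1.87 to -1.29) and Ppl (-1.92 to -1.71) were lost whichever library was left out, and that of Klf4 (-2.36 to -1.27) in 3 of the 4 cases, while Klf5 and Gata3 stayed called. With edgeR, Cldn1, Rab25 and Klf4 were not called. In Klf5, Gata3 and Klf4 both treated samples were lower than either untreated one. Elf5, the alveolar factor, had no read in the untreated samples and 1.89 and 1.3 CPM in the treated ones. The epithelial splicing regulator Esrp1 and the EMT repressors Grhl2 and Ovol1 were not called. They are named after their values were seen, and their levels were 213 and 272 CPM untreated and 199.8 and 192 CPM treated for Esrp1, 219 and 207 CPM untreated and 168 and 125 CPM treated for Grhl2, and 7.34 and 7.74 CPM untreated and 7.64 and 7.98 CPM treated for Ovol1.

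The inducers of EMT and the mesenchymal genes gave the other side of the picture. Of 15 EMT transcription factors, 1 rose (6.67%) and none fell, with a median log2 fold change of 0.64. This count depended on the fit, with 5 up and 1 down when only the samples compared entered it, 4 up and 1 down with a replicate block, 3 up with the GC trend removed, 4 up against the untreated cells of the Wnt3a experiment and none without treated replicate 1. Zeb1 was that gene, with 3.49 and 3.4 CPM untreated and 21.6 and 18.3 CPM treated (log2 fold change 2.23 (SE 0.52), adjusted p = 0.0044). Zeb2 measured 6.56 and 6.1 CPM untreated and 32.1 and 16.5 CPM treated, Snai1 1.86 and 1.95 CPM untreated and 5.13 and 13.2 CPM treated, Snai2 9.43 and 13.1 CPM untreated and 4.75 and 2.65 CPM treated and Twist1 11.5 and 12.8 CPM untreated and 10.4 and 11.3 CPM treated. Both treated samples were above the untreated ones for Zeb2 and Snai1 and below them for Snai2 and Twist1, and none of the 4 passed the test (adjusted p = 0.065, 0.18, 0.17 and 0.88). Of 10 mesenchymal markers 4 rose (40%) and none fell, with a median of 1.01. Vim, the intermediate filament protein vimentin, measured 18.2 and 25 CPM untreated and 172 and 305 CPM treated (log2 fold change 3.36 (SE 0.77), adjusted p = 0.0035). Fn1, fibronectin, measured 5552 and 5895 CPM untreated and 45141 and 63936 CPM treated (log2 fold change 3.23 (SE 0.65), adjusted p = 0.00087). Itga5, the integrin subunit that binds fibronectin, measured 102 and 96.6 CPM untreated and 753 and 1397 CPM treated (log2 fold change 3.36 (SE 0.51), adjusted p = 1.9e-05). Ncam1, a neural adhesion molecule, measured 6.83 and 6.48 CPM untreated and 33.3 and 31.3 CPM treated (log2 fold change 2.12 (SE 0.58), adjusted p = 0.015). In all 4 genes the treated samples stood clear of the untreated ones. The call of Vim was lost without treated replicate 2 and without untreated replicate 1 (2.95 to 3.78), that of Ncam1 whichever library was left out (2.08 to 2.17) and that of Zeb1 without treated replicate 1 (2.12), while Fn1 and Itga5 stayed called. Against the untreated ΔC/- cells of the Wnt3a experiment as controls Vim was not called either (1.63). Cdh2 (N-cadherin) measured 45.1 and 49.9 CPM untreated and 84 and 75 CPM treated (adjusted p = 0.38), and the smooth muscle actin gene Acta2 had 0.386 and 0.158 CPM in the treated and no read in the untreated samples.

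**Figure D2:**
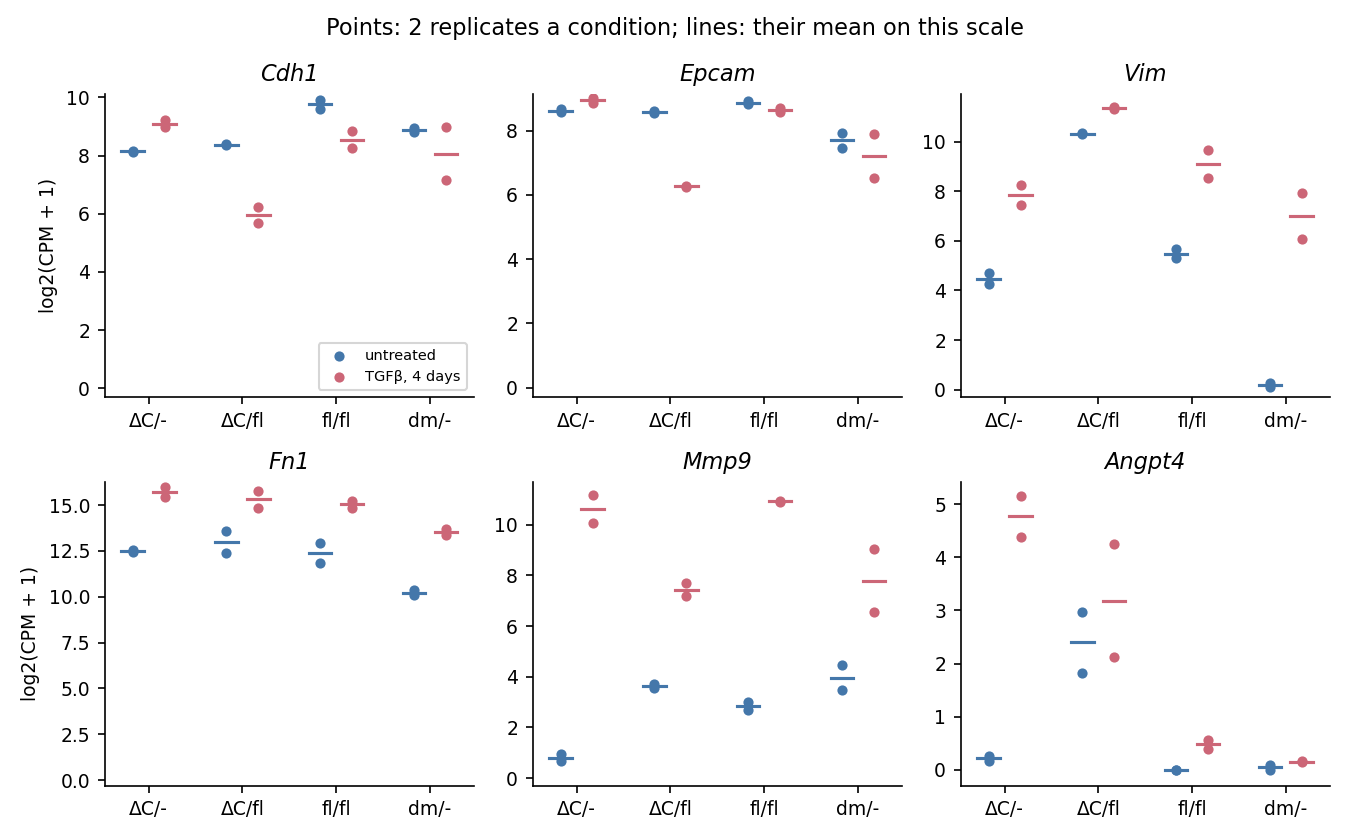
Expression of Cdh1, Epcam, Vim, Fn1, Mmp9 and Angpt4 in untreated (blue) and TGFβ-treated (red) cells of 4 genotypes, as log2(CPM + 1) on the vertical axis, with 1 point per replicate and a line at the mean. Cdh1 and Epcam fell in ΔC/fl cells and lie higher after treatment in ΔC/- cells, where neither was called, and the untreated level of Vim in ΔC/fl cells, 1281 and 1288 CPM, is above every ΔC/- value.

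Matrix genes held many of the strongest increases. Of 20 matrix glycoproteins and proteoglycans, 8 rose (40%) and Thbs1 fell (5%), with a median log2 fold change of 0.95. Ccn4, a matricellular protein, measured 5.09 and 5.95 CPM untreated and 126 and 78.9 CPM treated (log2 fold change 3.95 (SE 0.63), adjusted p = 4.3e-05). Ccn1, another protein of this family, measured 100.4 and 124 CPM untreated and 458 and 714 CPM treated (log2 fold change 2.35 (SE 0.48), adjusted p = 0.0011). With Tnc, Has2, Fn1 and Ccn2 above, they made 6 of the 8, and the last were Fbln2 (177 and 172 CPM untreated and 449 and 830.2 CPM treated) and Fbn1 (0.97 and 1.32 CPM untreated and 8.68 and 3.99 CPM treated), which encode fibulin 2 and fibrillin 1. Of 27 collagen genes 4 rose (14.8%) and 1 fell (3.70%), and the list median was 0.08. Col5a3, a chain of fibrillar collagen V, measured 0.155 and 0.0944 CPM untreated and 27.4 and 35.4 CPM treated (log2 fold change 4.84 (SE 0.62), adjusted p = 1.2e-06), starting from 4 and 3 reads. Col7a1, the anchoring fibril collagen, measured 24.4 and 26.8 CPM untreated and 213 and 293 CPM treated (log2 fold change 3.24 (SE 0.72), adjusted p = 0.0025). Col27a1 measured 0.854 and 0.535 CPM untreated and 10.9 and 10.9 CPM treated and Col15a1 3.03 and 3.74 CPM untreated and 8.41 and 10.9 CPM treated, so that the 4 rising collagens belonged to 4 types. Col4a6, a chain of basement membrane collagen, fell from 86 and 97.3 to 22.1 and 16.4 CPM (log2 fold change -2.20 (SE 0.34), adjusted p = 2.4e-05). Of 16 enzymes that modify or cross-link collagen, Bmp1, the procollagen C-proteinase (97.9 and 125 CPM untreated and 687 and 1115 CPM treated), and P3h1, a prolyl hydroxylase (1.9 and 1.92 CPM untreated and 6.48 and 9.88 CPM treated), rose. Of 10 laminin and nidogen genes 3 rose, among them Lama3, a laminin chain of epithelial basement membranes, with 219 and 247 CPM untreated and 1071 and 1108 CPM treated, and Lamb1, another laminin chain, with 452 and 507 CPM untreated and 1094 and 1363 CPM treated. Both treated samples exceeded the untreated ones in each. Among the matrix genes, Fbn1 lost its call whichever library was left out (1.22 to 2.18), Fbln2 (1.36 to 2.25) and P3h1 (1.36 to 1.90) in 3 of the 4 cases, Col15a1 in 2 (1.11 to 1.45) and with edgeR, and Lamb1 without treated replicate 2 (1.19).

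Of 19 tested matrix metalloproteinases (MMPs) and inhibitors 7 rose (36.8%) and 2 fell (10.5%). Besides Mmp9, the rising proteases included 4 of the MMP cluster on chromosome 9, which holds stromelysins, collagenases and the macrophage elastase. Mmp12, that elastase, lies at chr9:7344397-7360461 and measured 4.54 and 3.68 CPM untreated and 408 and 281 CPM treated (log2 fold change 6.06 (SE 0.62), adjusted p = 1.9e-08). Mmp13, collagenase 3, lies at chr9:7272514-7283333 and measured 4.11 and 4.72 CPM untreated and 70.5 and 42.7 CPM treated (log2 fold change 3.37 (SE 0.86), adjusted p = 0.0088). Mmp10, stromelysin 2, lies at chr9:7502342-7510242 and measured 30.9 and 34 CPM untreated and 244 and 384 CPM treated (log2 fold change 3.20 (SE 0.64), adjusted p = 0.00086). Mmp3, stromelysin 1, lies at chr9:7445822-7455975 and measured 0.311 and 0.346 CPM untreated and 12.8 and 7.78 CPM treated (log2 fold change 3.05 (SE 0.83), adjusted p = 0.016). All 4 neighbours were low before treatment and higher in both treated samples, and treated replicate 1 was above replicate 2 in Mmp12, Mmp13 and Mmp3. Mmp12 and Mmp10 stayed called whichever library was left out, whereas Mmp3 (2.73 to 3.37) lost its call in each case and Mmp13 (3.01 to 3.73) in 3 of the 4. The promoters of these 4 genes, which share a genome region and a direction of change, are shown as the 250 bases before a RefSeq start (GRCm38.p6), 5′ to 3′ on the strand of the gene, with matches to the searched motifs in capitals.
Mmp3 (chr9:7445572-7445821, plus strand): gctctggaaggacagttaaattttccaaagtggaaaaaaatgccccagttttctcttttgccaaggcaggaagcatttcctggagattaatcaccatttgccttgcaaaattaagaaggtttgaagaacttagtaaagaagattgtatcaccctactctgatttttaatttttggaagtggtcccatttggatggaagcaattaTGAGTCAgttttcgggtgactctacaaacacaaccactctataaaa
Mmp10 (chr9:7502092-7502341, plus strand): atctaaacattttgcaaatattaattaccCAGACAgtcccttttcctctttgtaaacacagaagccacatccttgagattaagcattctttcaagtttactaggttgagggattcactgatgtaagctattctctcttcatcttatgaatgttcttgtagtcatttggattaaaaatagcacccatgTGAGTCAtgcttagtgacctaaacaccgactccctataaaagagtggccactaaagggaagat
Mmp12, second start (chr9:7347124-7347373, plus strand): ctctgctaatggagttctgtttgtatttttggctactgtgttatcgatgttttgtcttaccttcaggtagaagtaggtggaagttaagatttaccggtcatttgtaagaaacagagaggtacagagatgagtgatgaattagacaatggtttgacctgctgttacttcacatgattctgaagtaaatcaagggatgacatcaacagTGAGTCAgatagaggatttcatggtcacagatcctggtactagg
Mmp13 (chr9:7272264-7272513, plus strand): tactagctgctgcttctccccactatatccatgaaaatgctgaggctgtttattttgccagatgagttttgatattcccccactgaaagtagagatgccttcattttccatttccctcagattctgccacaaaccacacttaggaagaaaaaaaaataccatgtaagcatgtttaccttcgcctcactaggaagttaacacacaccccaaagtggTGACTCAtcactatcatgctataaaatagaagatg
Each holds the letters TGANTCA, the AP-1 element, with its first base at -46 in Mmp3, -63 in Mmp10, -44 in Mmp12 and -35 in Mmp13, counted from -1 at the last base before the start. Mmp10 also holds CAGACA, a Smad element, at -221, and the other RefSeq start of Mmp12 had no match. Over windows from 250 bases before to 50 after a start, TGANTCA was found in 4 of the 6 windows of the 5 rising genes of this list that had one, in 2 of 10 windows of the 7 genes not called and in neither of the 2 windows of the genes that fell. It was present in 5.81% of the 13815 windows of all tested genes.

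The same search was made for all called genes, on both strands, with 286 of the 394 that rose and 391 of the 507 that fell matched to RefSeq windows. TGANTCA was in 10.9% of 385 windows of genes that rose and in 8.20% of 500 windows of genes that fell. The Smad element CAGACA was in 21.8% and 18.6%, against 16.2% of all windows, and its GC-rich form GGCGCC in 19.2% and 20%, against 20.5%. The E-box CACCTG, bound by Snail and Zeb factors, was in 22.6% and 22.8%, against 18.4%. The TCF/LEF element CTTTGAT was in 3.64% and 2.80%, against 2.69%. These shares describe letters in a window and were not tested. No motif contains another. Tnc, with the second largest rise, is shown as an example of a window with a Smad element, TGTCTG on this strand, at -71.
Tnc, second start (chr4:64046937-64047186, minus strand): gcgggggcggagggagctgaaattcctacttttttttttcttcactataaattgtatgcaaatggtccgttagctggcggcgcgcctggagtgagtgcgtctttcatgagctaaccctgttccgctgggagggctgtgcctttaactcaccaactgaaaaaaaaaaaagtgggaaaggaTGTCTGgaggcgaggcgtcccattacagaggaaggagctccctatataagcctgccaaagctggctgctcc

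The other called members of the MMP list were Timp1, an MMP inhibitor (12.5 and 14.5 CPM untreated and 84.3 and 152 CPM treated), and Adam12, a membrane protease (101 and 207 CPM untreated and 609.8 and 631 CPM treated), which rose, and Mmp15 (39.6 and 33.2 CPM untreated and 7.1 and 8.57 CPM treated) and Timp3 (966 and 899 CPM untreated and 576 and 238 CPM treated), which fell. Timp1 and Timp3 thus moved in opposite directions. Mmp15 lost its call whichever library was left out, Timp3 in 3 of the 4 cases (-1.96 to -0.69), and neither was called with edgeR. Against the untreated ΔC/- cells of the Wnt3a experiment Mmp15 was higher, not lower, after TGFβ, without a call (log2 fold change 0.97), and Mmp3 was not called (0.87). In the plasminogen system, 2 of 7 genes rose (28.6%), with a list median of 1.18. Plau, the urokinase that activates plasminogen, measured 221 and 229 CPM untreated and 1546 and 1688 CPM treated (log2 fold change 2.84 (SE 0.48), adjusted p = 9.9e-05). Both treated samples lay far above the untreated ones.

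Among 17 integrin subunits 2 rose (11.8%) and 1 fell (5.88%). Beside Itga5, Itgb3, the β3 chain of the vitronectin receptor, went from 1 read in the untreated samples together to 6.37 and 10.6 CPM in the treated ones, and Itgb7, a lymphoid β chain, fell from 4.58 and 6.1 to 0.579 and 0.474 CPM. The call of Itgb7 was lost whichever library was left out (-2.22 to -1.87). Of 21 contractile and actin-binding genes, 5 rose (23.8%) and 1 fell (4.76%), with a median log2 fold change of 0.34. Palld, the actin cross-linker palladin, measured 6.25 and 7.68 CPM untreated and 124 and 133 CPM treated (log2 fold change 4.03 (SE 0.34), adjusted p = 4e-10). Its treated values lay close together. The list had 5 called members without treated replicate 1, 3 without untreated replicate 2, 2 without treated replicate 2 and 1 without untreated replicate 1. Flna, filamin A, measured 1129 and 1496 CPM untreated and 2741 and 4486 CPM treated (adjusted p = 0.017), and Fermt2, the integrin activator kindlin 2, 40.5 and 49.3 CPM untreated and 129 and 110.4 CPM treated (adjusted p = 0.021). Actn1, an α-actinin, measured 631 and 659 CPM untreated and 1285 and 1856 CPM treated (adjusted p = 0.028), and Tpm1, a tropomyosin, 687 and 686 CPM untreated and 1198 and 1718 CPM treated (adjusted p = 0.033). Des, which encodes the muscle filament protein desmin, fell from 1.9 and 1.07 to 0.116 and 0.118 CPM. The call of Fermt2 was lost whichever library was left out (1.26 to 1.54), and those of Actn1 (0.99 to 1.52) and Tpm1 (0.80 to 1.32) in 3 of the 4 cases. Flna lost its call without treated replicate 2 or untreated replicate 1 (1.08 to 1.79). Des lost its call without untreated replicate 1 (-1.38 to -0.89) and against either other set of controls. Of 22 target genes of the YAP/TEAD pathway, 4 rose (18.2%) and 2 fell (9.09%), and their median was 0.17. Nt5e, the ectonucleotidase CD73, measured 218 and 239.8 CPM untreated and 2098 and 1890.5 CPM treated (log2 fold change 3.116 (SE 0.60), adjusted p = 0.0005), and Dock5, a Rac activator, 128 and 149.6 CPM untreated and 373 and 383 CPM treated. Ccn1 and Ccn2 made up the rest of the rising ones. Crim1 (446 and 325 CPM untreated and 111 and 102 CPM treated) and Ptpn14, an inhibitor of YAP (396 and 384 CPM untreated and 156 and 194 CPM treated), fell. Against the untreated cells of the Wnt3a experiment 3 genes of this list rose and none fell. Ptpn14 and Dock5 lost their calls against either other set of controls, and Ptpn14 also without treated replicate 1. Crim1 lost its call against the Wnt3a controls and without untreated replicate 1.

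None of the 17 tested genes for β-catenin and its transcriptional partners was called. This depended on the controls and the fit, as 3 rose against the untreated cells of the Wnt3a experiment and 1 with only the samples compared. Bcl9 measured 51 and 47.4 CPM untreated and 67.1 and 84.8 CPM treated and Bcl9l 117 and 112 CPM untreated and 84.1 and 159 CPM treated (adjusted p = 0.43 and 1), and Tcf7 27 and 27.2 CPM untreated and 29.1 and 34.1 CPM treated (adjusted p = 0.8). Of 16 Wnt target and feedback genes, 1 rose (6.25%) and 2 fell (12.5%), with a median log2 fold change of 0.03. Lef1, a TCF/LEF factor and Wnt target, measured 2.45 and 3.87 CPM untreated and 10.2 and 13.1 CPM treated (log2 fold change 1.62 (SE 0.36), adjusted p = 0.0028). It was not called with edgeR, with pseudocount 0.1, or without treated replicate 2 or untreated replicate 1 (1.37 to 1.87), and without treated replicate 2 none of the 16 genes was called. Axin2, the classical feedback target of β-catenin, measured 3.53 and 1.29 CPM untreated and 4.82 and 3.44 CPM treated, and its untreated values alone differed by more than a factor of 2 (adjusted p = 0.57). The Wnt antagonists Sfrp1 (14.3 and 13.7 CPM untreated and 4.05 and 1.9 CPM treated) and Nkd2 (101 and 72 CPM untreated and 30.6 and 18.7 CPM treated) fell. Of 9 tested Wnt ligand genes, Wnt11, a ligand of β-catenin-independent signaling, measured 12.4 and 4.63 CPM untreated and 103 and 132 CPM treated (log2 fold change 3.76 (SE 0.35), adjusted p = 2e-09), and Wnt4, a mammary ligand downstream of progesterone, 31.4 and 19.7 CPM untreated and 2.7 and 1.82 CPM treated (log2 fold change -3.005 (SE 0.51), adjusted p = 0.0001). One ligand rose and one fell, each with both treated samples clear of the untreated ones. Of 13 receptors and co-receptors, Fzd5 rose (18.9 and 21.3 CPM untreated and 45.8 and 38.5 CPM treated) and Ror1 fell (15.5 and 12.8 CPM untreated and 6.48 and 4.78 CPM treated). Fzd5 lost its call whichever library was left out (0.91 to 1.15), with the GC trend removed and against either other set of controls, and Ror1 in 3 of the 4 fits without 1 library (-1.39 to -1.02). Against the untreated cells of the Wnt3a experiment Wnt4 was not called (-0.60).

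Of 31 chemokines, cytokines and growth factors 7 rose (22.6%) and 2 fell (6.45%), with a median log2 fold change of 0.10. Il1a, the alarmin interleukin 1α, measured 28.2 and 17 CPM untreated and 502 and 117 CPM treated (log2 fold change 3.41 (SE 0.80), adjusted p = 0.0045), and treated replicate 1 was more than 4-fold above replicate 2. Its call was lost without treated replicate 1 or untreated replicate 2 (2.36 to 4.46). Il1rn, its receptor antagonist, fell (33.5 and 26.3 CPM untreated and 16.3 and 6.08 CPM treated, adjusted p = 0.048), but lost its call in 3 of the 4 fits without 1 library (-2.11 to -0.82), with edgeR, pseudocount 0.1, no filter and median-of-ratios scaling. Pdgfa, a growth factor for mesenchymal cells, measured 32.6 and 32.1 CPM untreated and 179.8 and 277 CPM treated (log2 fold change 2.75 (SE 0.39), adjusted p = 7.9e-06). The monocyte chemoattractants Ccl7 (1.98 and 0.724 CPM untreated and 17.9 and 9.64 CPM treated) and Ccl2 (15.2 and 10.2 CPM untreated and 100.0 and 52 CPM treated) rose as well, as did Vegfc, a lymphangiogenic factor (25.3 and 27.9 CPM untreated and 126 and 131 CPM treated), and Pdgfb (73.9 and 66.4 CPM untreated and 213 and 318 CPM treated). Pdgfb lost its call whichever library was left out (1.59 to 2.17), and Ccl2 without treated replicate 1 or untreated replicate 2 (1.98 to 2.91). Csf1, the macrophage colony-stimulating factor, went the other way, with 789 and 788 CPM untreated and 215 and 192 CPM treated (log2 fold change -1.95 (SE 0.39), adjusted p = 0.00088). The 3 colony-stimulating and chemotactic genes Csf2, Ccl7 and Ccl2 were thus higher and Csf1 lower in both treated samples. Csf1r, the receptor of Csf1 and a member of the leukocyte marker list, rose (1.24 and 1.38 CPM untreated and 9.03 and 18.4 CPM treated), and Cd68, a lysosomal protein of the same list, fell (79.4 and 59.2 CPM untreated and 7.99 and 8.73 CPM treated), in libraries where Ptprc was at or near 0.

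Of 9 insulin-like growth factor genes Igfbp7 rose (11.1% of the list; 16 and 13.2 CPM untreated and 72.7 and 102 CPM treated), and of 22 glycolysis and hypoxia genes 3 (13.6%, beside 2.86% of all genes), Hk2 (131 and 96.2 CPM untreated and 358 and 326 CPM treated), Pfkp (2.64 and 2.3 CPM untreated and 8.72 and 9.16 CPM treated) and the lactate transporter Slc16a3 (0.116 and 0.0315 CPM untreated and 2.2 and 5.1 CPM treated) rose. Of 18 interferon-stimulated genes 1 fell, and of 21 genes of cholesterol and fatty acid synthesis Scd1, a desaturase, fell (1419.7 and 1315 CPM untreated and 762 and 345 CPM treated). None of 26 cell cycle genes, 16 chaperones of the endoplasmic reticulum, 10 milk protein and differentiation genes or 6 housekeeping genes was called. For the cell cycle genes this depended on the controls and the fit, as 14 of the 26 fell against the untreated cells of the Wnt3a experiment and 8 against those of both experiments, 3 rose and 2 fell with only the samples compared, and 3 rose and 3 fell with a replicate block. Scd1 lost its call in 3 of the 4 fits without 1 library (-1.98 to -0.84) and with edgeR, and Pfkp whichever library was left out (1.45 to 1.59). In the cell cycle genes the untreated replicates differed from each other, as for Mki67, chosen after its values were seen, with 11.6 and 38.2 CPM untreated and 9.99 and 7.66 CPM treated. The 6 housekeeping genes, though not called, summed to 2244 and 2358 CPM untreated and 2935.5 and 5832.7 CPM treated, highest in treated replicate 2. Their median log2 fold change was 0.16 and their highest 1.62. Over all 39 lists, 511 genes were tested, of which 62 rose and 26 fell, where 2.86% and 3.69% of all genes tested did so. The lists were chosen with earlier results of these data known.

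The response of ΔC/- cells was then set beside that of the 3 genotypes taken for comparison, each against its own untreated samples. ΔC/fl cells had 446 genes that rose and 618 that fell (3.24% and 4.49% of all tested), or 7.74% together. In fl/fl cells 455 and 405 did so (3.31% and 2.94%, together 6.25%), and in dm/- cells 506 and 336 (3.68% and 2.44%, together 6.12%). Of the 394 genes that rose in ΔC/- cells, 151 (38.3%) also rose in ΔC/fl cells, 203 (51.5%) in fl/fl cells and 145 (36.8%) in dm/- cells, or 33.9%, 44.6% and 28.7% of the genes that rose there. Of the 507 that fell, 156 (30.8%), 128 (25.2%) and 102 (20.1%) did so, or 25.2%, 31.6% and 30.4% of the falling genes of those genotypes. Opposite calls were made for 7 genes against ΔC/fl, 2 against fl/fl and 9 against dm/- cells. In all 4 genotypes compared, 63 genes rose and 40 fell. Among those named above, Itga5 rose by 3.24, 3.44 and 2.99 on the log2 scale in ΔC/fl, fl/fl and dm/- cells. Fn1 rose by 2.34, 2.67 and 3.30, and Plekhs1 fell by 3.27, 3.42 and 3.42. For these genes the difference from the response of ΔC/- cells was not called against any of the 3.

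**Figure D3:**
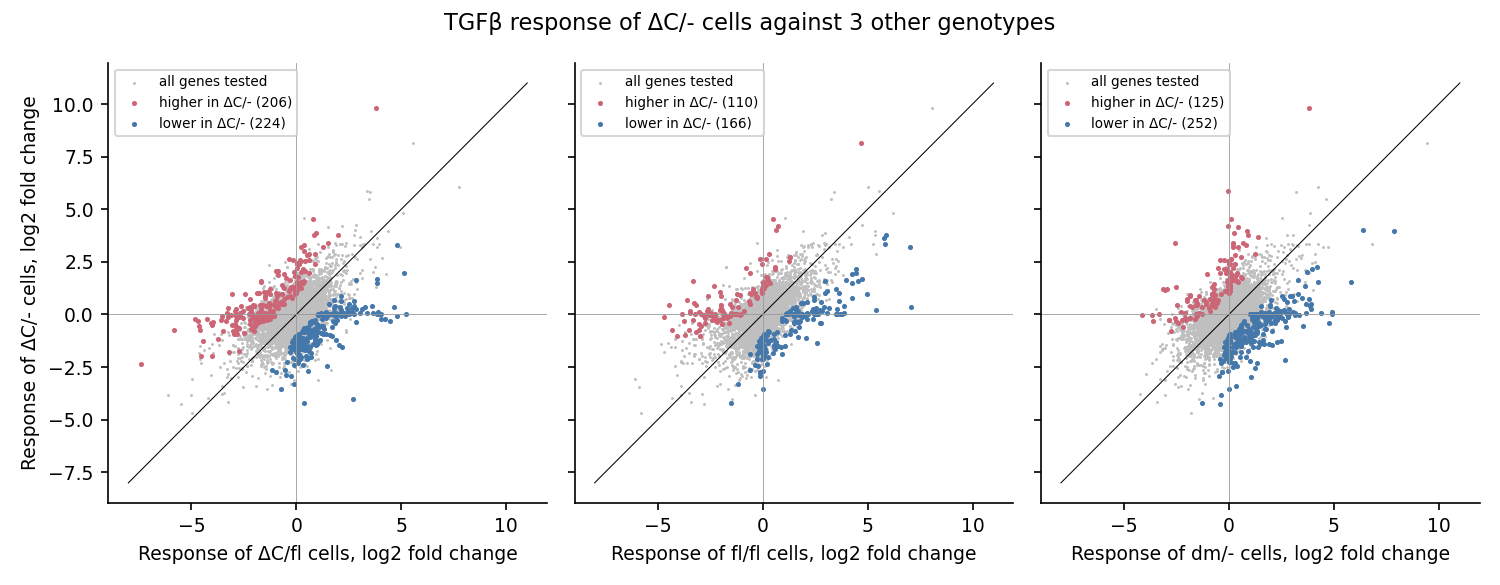
TGFβ response of ΔC/- cells (vertical axis, log2 fold change) against that of ΔC/fl, fl/fl and dm/- cells (horizontal axes, log2 fold change), 1 point per gene of 13754. Red and blue mark genes whose response was called higher or lower in ΔC/- cells, 206 and 224 against ΔC/fl, 110 and 166 against fl/fl and 125 and 252 against dm/-, and the line marks equal responses.

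The difference between responses was tested for each gene in the same fit, as the log2 fold change of ΔC/- cells minus that of the other genotype. It was called for 430 genes against ΔC/fl cells (3.13%), with 206 higher and 224 lower in ΔC/- cells, for 276 against fl/fl cells (2.01%), with 110 higher and 166 lower, and for 377 against dm/- cells (2.74%), with 125 higher and 252 lower. A difference can come from either side. Of the 206 genes higher than in ΔC/fl cells, 71 were called in ΔC/- cells and 130 in ΔC/fl cells. The 3 comparisons share the ΔC/- samples and are not independent of each other.

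Epithelial genes were among the differences. Of the 23 junction genes, 13 fell in ΔC/fl cells, 8 in fl/fl cells and 3 in dm/- cells, against the 2 in ΔC/- cells, and the medians were -1.79, -0.69 and -0.73. The response was called higher in ΔC/- cells for 6 of them against ΔC/fl cells, where 1.5% of all genes were so called, for 2 against fl/fl cells (0.800%) and for 1 against dm/- cells (0.909%). Cdh1 was the one gene of this list called against all 3. In ΔC/fl cells Cdh1 fell from 324 and 335 to 73.4 and 49.9 CPM, and in fl/fl cells from 966 and 782 to 457 and 302 CPM. In dm/- cells Cdh1 measured 495 and 447 CPM untreated and 502 and 140.4 CPM treated, and its treated samples overlapped the untreated range. The differences in response were 3.38 (adjusted p = 2.2e-05), 2.18 (adjusted p = 0.0069) and 1.78 (adjusted p = 0.032). The difference from ΔC/fl cells stayed called whichever library was left out, that from fl/fl cells was lost without fl/fl treated replicate 2 (1.88, adjusted p = 0.078), and that from dm/- cells was lost in 7 of 8 cases, down to 0.86 without dm/- treated replicate 2, and with edgeR or with only the samples compared in the fit. Epcam fell in ΔC/fl cells from 369 and 388 to 76.8 and 75.3 CPM, and its difference of 2.62 was called (adjusted p = 0.00012), while those from fl/fl and dm/- cells were not. Of the 16 epithelial transcription and splicing factors, 11 fell in ΔC/fl, 8 in fl/fl and 6 in dm/- cells, against 3 in ΔC/- cells, and the response was called higher for 5, 4 and 1 of them. Against dm/- cells it was also called lower for 1 of them.

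**Figure D4:**
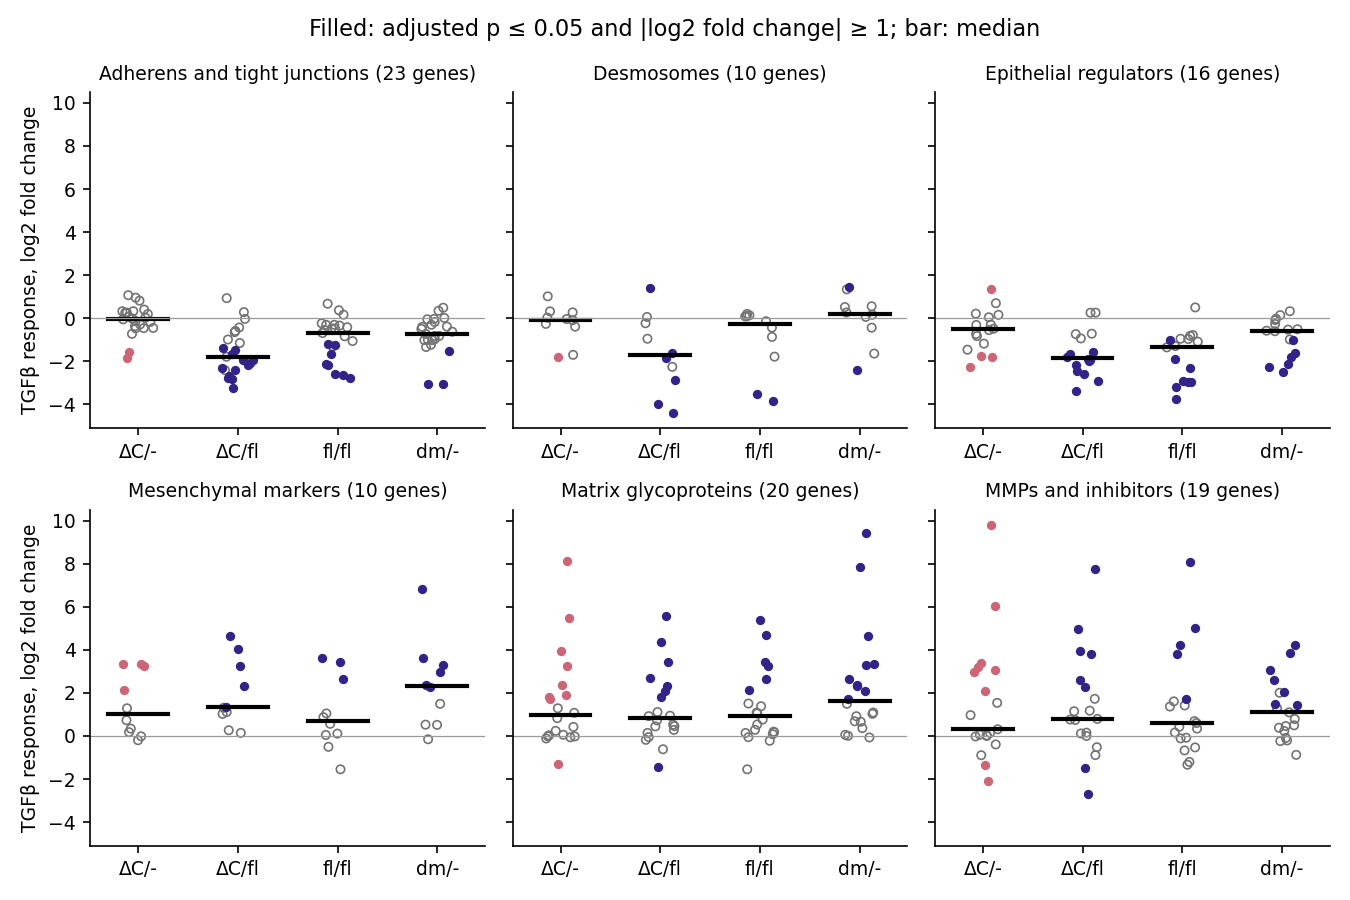
TGFβ response, as log2 fold change on the vertical axis, of the tested members of 6 gene lists in ΔC/-, ΔC/fl, fl/fl and dm/- cells, 1 point per gene, filled where the gene was called, with a bar at the median. The median of the junction genes is -0.02 in ΔC/- cells and -1.79 in ΔC/fl cells, while those of the matrix glycoproteins are 0.95 and 0.82.

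Of the 10 mesenchymal markers 2 were called lower in ΔC/- than in ΔC/fl cells. Of the 21 contractile genes 8 rose in ΔC/fl cells, and the response was called lower in ΔC/- cells for 5, where 1.63% of all genes were so called, with Acta2 at 3.16 and 2.67 CPM untreated and 189 and 50 CPM treated in ΔC/fl cells (difference -4.31, adjusted p = 9.1e-05). With the few Acta2 reads of ΔC/- cells, edgeR gave 0.52 with no call. Vim measured 1281 and 1288 CPM untreated and 2567 and 2660.3 CPM treated in ΔC/fl cells, 38.2 and 49.8 CPM untreated and 374 and 808 CPM treated in fl/fl cells and 0.0917 and 0.212 CPM untreated and 67.2 and 242 CPM treated in dm/- cells, and its difference in response was not called against any of them. Mmp9 was induced in all 4 genotypes compared. It measured 12.1 and 10.9 CPM untreated and 206 and 144 CPM treated in ΔC/fl cells, 5.35 and 7.04 CPM untreated and 1922 and 1949 CPM treated in fl/fl cells and 21 and 10 CPM untreated and 92.3 and 529.8 CPM treated in dm/- cells. The untreated level was lowest in ΔC/- cells, and the log2 fold change was larger than in ΔC/fl cells by 5.995 (adjusted p = 0.0027) and than in dm/- cells by 5.96 (adjusted p = 0.0025). Against fl/fl cells the difference of 1.72 was not called.

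The largest differences, beyond Mmp9, mixed genes that responded in ΔC/- cells with genes that responded elsewhere. Against ΔC/fl cells, Tfcp2l1, an epithelial Grainyhead-like factor, showed the next largest positive difference (5.12), followed by Inmt (5.01), Aqp1 (4.63) and Barx2 (4.38). All 4 fell in ΔC/fl cells, Tfcp2l1 from 344 and 117 to 3.4 and 1.83 CPM, and Tfcp2l1, Aqp1 and Barx2 were not called in ΔC/- cells. The largest negative difference was that of Tenm4 (-6.71), which fell in ΔC/- cells and measured 24.3 and 9.94 CPM untreated and 49.9 and 234 CPM treated in ΔC/fl cells. St8sia2 (-5.22), Col4a4 (-4.86) and Col4a3 (-4.77), chains of a basement membrane collagen in the last cases, rose in ΔC/fl cells and had at most 1.59 CPM in any ΔC/- sample. Ckmt1 (-4.58) fell in ΔC/- cells and was not called in ΔC/fl cells.

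Against fl/fl cells the positive differences of Ptx3 (4.90), Col17a1 (4.88), Krt6a (4.55) and Pglyrp3 (4.27) went with a fall in fl/fl cells, as for Krt6a, a stress keratin, from 31.1 and 30.3 to 0.133 and 0.331 CPM. None of these 4 was called in ΔC/- cells, while Angpt4 (4.08) rose there. The negative differences were those of Dgkk (-6.71), Il11 (-5.18), Spn (-4.04), Ppfibp2 (-3.96) and Itgb3 (-3.85). With few Itgb3 reads in untreated ΔC/- cells, edgeR gave a difference of the opposite sign for it (1.08) with no call. Il11, a cytokine and known TGFβ target, measured 2.94 and 3.41 CPM untreated and 116 and 264 CPM treated in fl/fl cells and 1.44 and 0.913 CPM untreated and 1.08 and 2.05 CPM treated in ΔC/- cells, and was called in the former and not in the latter. Against dm/- cells, Il1a (5.96), Csf2 (5.93), Angpt4 (4.46) and Lilrb4a (4.36) followed Mmp9. Il1a fell in dm/- cells, from 17 and 14.1 to 1.97 and 1.65 CPM, and rose in ΔC/- cells. The negative differences were Prdm1 (-5.20), Cacna1g (-4.89), Synpo (-4.81), Pdgfrb (-4.80) and Gprin3 (-4.31). Synpo, which encodes the actin-binding synaptopodin, measured 536 and 437 CPM untreated and 112 and 106 CPM treated in ΔC/- and 3.21 and 1.73 CPM untreated and 31.1 and 13.6 CPM treated in dm/- cells, and the responses had opposite directions. The fall of Synpo in ΔC/- cells lost its call whichever library was left out (-2.29 to -1.99) and was not called against the untreated cells of the Wnt3a experiment (-0.08).

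In 48 genes the response of ΔC/- cells was called different from all 3 genotypes compared with it, higher in 16 and lower in 32. Of the 16, 14 rose in ΔC/- cells, and of the 32, 28 fell. Cdh1 was among the 16, and Ckmt1 and Rptoros were among the 32. Of those named next, all but Angpt4 were chosen after their values were seen. Angpt4 had the largest differences among the 16, 3.77, 4.08 and 4.46. It measured 6.88 and 2.54 CPM untreated and 18 and 3.36 CPM treated in ΔC/fl cells, 0.31 and 0.478 CPM in treated fl/fl cells and 0.114 and 0.0992 CPM in treated dm/- cells. With edgeR its differences from fl/fl (0.91) and dm/- cells (5.81) were not called, nor was that from ΔC/fl cells with only the samples compared in the fit. Tnfrsf11b (osteoprotegerin), a decoy receptor for RANKL, measured 0.116 and 0.157 CPM untreated and 7.25 and 4.27 CPM treated. Stac measured 0.0776 and 0.0629 CPM untreated and 4.44 and 4.9 CPM treated, and C2cd2 33.3 and 38.1 CPM untreated and 102 and 127 CPM treated. In each of these genes both treated samples were above the untreated ones. Among the 32, Kcnq1, a potassium channel, measured 27.4 and 24.5 CPM untreated and 7.41 and 4.7 CPM treated, and Inpp5d, the lipid phosphatase SHIP1, 5.43 and 5.66 CPM untreated and 0.502 and 0.79 CPM treated. Dgka, a diacylglycerol kinase, measured 164.09 and 163 CPM untreated and 63.4 and 76.4 CPM treated, and Fendrr, a long noncoding RNA, 9.55 and 11.2 CPM untreated and 2.01 and 2.57 CPM treated. Most of the 32 were low, and Dgka was the one among those named that exceeded 100 CPM. The fall of Dgka lost its call in 3 of the 4 fits without 1 library (-1.35 to -1.09). Against the untreated cells of the Wnt3a experiment Dgka, Kcnq1 and Rptoros were not called. Kcnq1 also lost its call with edgeR and with pseudocount 0.1. With edgeR on the recovered reads the differences were called for 130 genes against ΔC/fl cells, 46 against fl/fl cells and 135 against dm/- cells.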

How the data were processed

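Poly(A) RNA was sequenced from 56 samples, 28 conditions in duplicate. Per the study's methods, the authors built stranded libraries, kept reads that STAR aligned to 1 place in mm10, counted them over RefSeq exons with QuasR and scaled them to CPM. Genes with near-identical copies lose reads in this way. The deposited signal values are whole reads times 1 factor per library: reads were recovered for 100% of values within 0.001 reads. The test planned for CPM was kept, with limma 3.58.1 (R 4.3.3), as log2(CPM + 1) in 1 fit with a coefficient per condition, over 13754 of 20314 genes with at least 1 CPM in 2 samples. edgeR 4.0.16 on the recovered reads called 853 genes (361 up, 492 down). The procedure was also run on simulated counts. Those counts had the same spread setting in every group and no GC trend, unlike these data. Named genes were the 14 largest called changes and the 5 largest called differences each way, without replicate overlap, and up to 5 called members and set genes of each of 39 lists. The members and lists were chosen with earlier results of these data known. Alternatives were another pseudocount, no filter, median-of-ratios scaling, edgeR, only the compared samples, a replicate block, removal of the GC trend, other thresholds, other controls and leaving out each library. Labels name a NextSeq and methods a NovaSeq instrument. A few genes that the rule names are not reported here.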

Additional observations from a re-analysis of the deposited data

Results flagged for a closer look

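The results below were marked because the TGFβ response of ΔC/- cells differed from that of another genotype in limma's test of the difference itself. Values are the log2 fold change of ΔC/- cells minus that of the other genotype, for the genes named in the text. Against ΔC/fl cells, 430 genes were called. The response was higher in ΔC/- cells for Mmp9 (6.0), Tfcp2l1 (5.12), Inmt (5.01), Aqp1 (4.63), Barx2 (4.38), Angpt4 (3.77), Cdh1 (3.38), Epcam (2.62), Tnfrsf11b (2.31), C2cd2 (1.96) and Stac (1.49). It was lower for Tenm4 (-6.71), St8sia2 (-5.22), Col4a4 (-4.86), Col4a3 (-4.77), Ckmt1 (-4.58), Acta2 (-4.31), Rptoros (-2.83), Kcnq1 (-2.40), Inpp5d (-2.23), Dgka (-1.69) and Fendrr (-1.47). Against fl/fl cells, 276 genes were called. The response was higher in ΔC/- cells for Ptx3 (4.90), Col17a1 (4.88), Krt6a (4.55), Pglyrp3 (4.27), Angpt4 (4.08), Stac (2.43), Cdh1 (2.18), C2cd2 (1.37) and Tnfrsf11b (1.26). It was lower for Dgkk (-6.71), Il11 (-5.18), Spn (-4.04), Ppfibp2 (-3.96), Itgb3 (-3.85), Rptoros (-3.54), Ckmt1 (-2.71), Inpp5d (-2.27), Kcnq1 (-2.02), Fendrr (-1.96) and Dgka (-1.62). Against dm/- cells, 377 genes were called. The response was higher in ΔC/- cells for Il1a (5.96), Mmp9 (5.96), Csf2 (5.93), Angpt4 (4.46), Lilrb4a (4.36), Tnfrsf11b (2.56), Stac (2.11), Cdh1 (1.78) and C2cd2 (1.41). It was lower for Prdm1 (-5.20), Cacna1g (-4.89), Synpo (-4.81), Pdgfrb (-4.80), Gprin3 (-4.31), Rptoros (-3.54), Ckmt1 (-2.90), Dgka (-2.19), Kcnq1 (-2.08), Inpp5d (-1.91) and Fendrr (-1.59). How these differences arose was not tested, and a genotype cannot be told apart from the cell line that carries it. No group held enough samples to look for a single outlying one.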

How the results depend on the processing

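The count of genes called in ΔC/- cells, 901, was 486 to 669 without 1 of its libraries and 853 to 1189 with pseudocount 0.1, no filter, median-of-ratios scaling, edgeR, other controls or the GC trend removed. It was 1496 with only the samples compared in the fit and 2372 at an unadjusted p of 0.05 and 1.5-fold. Similar counts did not mean the same genes. Of the 901 calls, 543 were kept in the same direction with the Wnt3a controls, 718 with the untreated cells of both experiments and 714 with edgeR. With pseudocount 0.1, no filter, median-of-ratios scaling or the GC trend removed, 790 to 877 were kept. The difference from ΔC/fl cells (430) came to 130 with edgeR, 235 to 368 without 1 library and 1683 with the looser thresholds. That from fl/fl cells (276) came to 172 with pseudocount 0.1, 46 with edgeR, 436 with only the samples compared, 171 to 216 without 1 library and 1145 with the looser thresholds. That from dm/- cells (377) came to 135 with edgeR, 756 with only the samples compared, 232 to 308 without 1 library and 1544 with the looser thresholds. The 88 called list members became 152 with only the samples compared and 48 to 69 without 1 library. With a replicate block the 5 counts were 1363, 1123, 672, 989 and 137, and with the block and the GC trend removed 1520, 1501, 1023, 1488 and 149. The replicate numbers name no shared culture in the labels, and treated and untreated deviations of the same number correlated at -0.197 in ΔC/-, 0.464 in ΔC/fl, 0.66 in fl/fl and 0.456 in dm/- cells, over 2 pairs each, so the numbers were not taken as pairs. A crossed pairing, chosen after seeing the data, gave 1364, 1109, 664, 988 and 138. The causes of these shifts were not tested. Reversed signs were found for Mmp15 against untreated cells of the Wnt3a experiment (0.97), and with edgeR for the differences of Acta2 from ΔC/fl (0.52) and of Itgb3 from fl/fl cells (1.08), none of them called. Of the 113 named genes called in ΔC/- cells, 101 stayed called with edgeR, 78 with the Wnt3a controls, and 52 in all alternatives run. With 2 samples a group, a lone sample left by leaving out the other is assumed to vary like the other groups.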

Other observations

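The genes in these paragraphs were chosen after their values were seen, and their groups carry no test. Over all genes tested 2.86% rose and 3.69% fell. Genes of glycosaminoglycan synthesis, the sugar chains of hyaluronan and proteoglycans, stood beside the rise of Has2. Of 37 tested members, which include Has2 itself, 9 rose with Has2 among them and none fell, with a median log2 fold change of 0.39. Chsy1, which polymerizes chondroitin, measured 30 and 31.9 CPM untreated and 193 and 230.0 CPM treated (adjusted p = 7.1e-09), and Chst11, a chondroitin sulfotransferase, 1.13 and 0.441 CPM untreated and 18.1 and 14.4 CPM treated. Ext1, a heparan sulfate polymerase, measured 206 and 203 CPM untreated and 643 and 559 CPM treated. Of 11 tested Notch pathway genes, the ligand Jag1 (79.1 and 75.1 CPM untreated and 807 and 730.1 CPM treated) and the receptor Notch4 (2.72 and 3.24 CPM untreated and 15.9 and 31.3 CPM treated) rose, and the receptor Notch1 (54.4 and 67 CPM untreated and 7.29 and 11.5 CPM treated) fell, while the target Hes1 measured 31.6 and 24.6 CPM untreated and 27.7 and 44.8 CPM treated.

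Of 18 circadian clock genes 1 rose and 5 fell, with a median of -0.83. Dbp, a clock output factor, measured 28.1 and 21.3 CPM untreated and 2.97 and 4.11 CPM treated, Per2 45.6 and 27.5 CPM untreated and 8.91 and 7.27 CPM treated, and Bhlhe40, a clock repressor, 551 and 421 CPM untreated and 1272 and 1369 CPM treated. The untreated ΔC/- cells of the Wnt3a experiment had lower levels of Dbp (8.61 and 5.83 CPM) and Per2 (13.0 and 14.2 CPM). Bhlhe40 stood there at 460 and 179 CPM. The falls of Dbp and Per2 thus depended on which untreated cells served as controls. Of 8 genes known from the two-cell embryo, 6 fell and none rose. Their summed level was 12.5 and 22.6 CPM untreated and 1.81 and 0.672 CPM treated. In the 4 ΔC/- libraries of the Wnt3a experiment it was 20.2 to 30.8 CPM, and in the 48 libraries of the other genotypes 0.0736 to 9.53 CPM, with a median of 1.81. These genes lie in multi-copy families that can share reads.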
